A study of Mus musculus with 9 samples.

Results

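A group of 8 horizontal cell genes was followed in the neural retina of mouse pups at postnatal day 4 (P4) with and without melanopsin. The genes were given by symbol: Foxn4, Onecut1, Onecut2, Onecut3, Lhx1, Prox1, Calb1 and Slc4a3. They were chosen with earlier results of these data known. These are 8 of 53280 genes in the count table, and all 8 passed the filter on low counts, as did 21150 genes in all. One group of pups lacked Opn4, the melanopsin gene, on both chromosomes (Opn4 knockout), and the other was wildtype. Both came as littermates from crosses of Opn4 heterozygotes, lived under standard lighting of about 300 lux and were sampled between ZT6 and ZT7. Each of the 5 knockout and 4 wildtype libraries was made from 4 pooled retinas of 2 animals with 1 genotype. The labels give neither the deleted part of Opn4 nor the sex or litter of the pups.

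Horizontal cells are interneurons of the outer retina that receive input from rods and cones and feed inhibition back onto them. In the mouse they are born before birth. The forkhead factor Foxn4 acts in dividing progenitors and turns on Ptf1a, a bHLH factor without which horizontal cells do not form, while Onecut1 acts beside Ptf1a and upstream of Lhx1 and Prox1. None of these genes is private to horizontal cells: Foxn4 marks progenitors, Onecut genes are also read in ganglion cells and early cones, Prox1 in bipolar cells and AII amacrine cells, and Calb1 in amacrine and ganglion cells. The study concerns a light-driven route from melanopsin ganglion cells that sets the number of rods, and the comparison below asks which horizontal cell genes differed between the genotypes. Whole retina was measured, so fewer cells of a type and less RNA per cell cannot be told apart.

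The libraries held 65.5 to 86.1 M counts, and the members between 261 and 12556 counts in a pool. Levels are given as CPM (counts scaled to library size by TMM) and differences as log2 fold changes, knockout minus wildtype, with edgeR's quasi-likelihood test adjusted over all 21150 genes and a threshold of 0.05. Opn4 itself measured 1.07 to 1.82 CPM in the knockout pools and 11.4 to 12.0 CPM in the wildtype pools, so every library matched its label (exact two-sided permutation p = 0.00794, the smallest that 5 pools against 4 can give). Knockout pools 1 and 2 stood apart in several genes. The lens crystallin Cryaa measured 4.65 and 3.28 CPM there against 0.0812 to 0.737 CPM elsewhere, the bipolar receptor Grm6 1.87 and 2.50 CPM against 0 to 0.577 CPM, and the cone arrestin Arr3 16.8 and 13.2 CPM against 5.47 to 10.1 CPM. Some other lens genes did not part these pools, such as Mip at 1.02 and 0.750 CPM against 0.434 to 1.06 CPM. The calls on members and gene lists are given with and without them.

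Foxn4, the factor that acts earliest, fell to 54.2% of its wildtype level, while Prox1 and Calb1, which are also read in other cell types, rose by less. The 3 Onecut genes, Lhx1 and Slc4a3 did not pass the test. The 3 called members, 2 higher and 1 lower, are 37.5% of the 8, beside 3.59% of all genes tested. Because the members were chosen with earlier results of these data known, this share is only a description. The share called higher among all genes was 1.34% and the share called lower 2.25%; the 284 genes behind the former became 158 without knockout pool 2, 165 without wildtype pool 1 and 153 without wildtype pool 4. The median log2 fold change of the members was 0.13, beside 0.00 over all genes. In 4 members (Foxn4, Prox1, Calb1 and Onecut3) the CPM ranges of the genotypes did not overlap, as in 8.29% of all genes tested (3.92% higher and 4.37% lower in knockout). DESeq2, which called 9.6% of the genes it tested, called the same number of members in each direction. With knockout pools 1 and 2 removed, and likewise in TPM, 0 members were higher and 1 was lower.

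**Figure D1:**
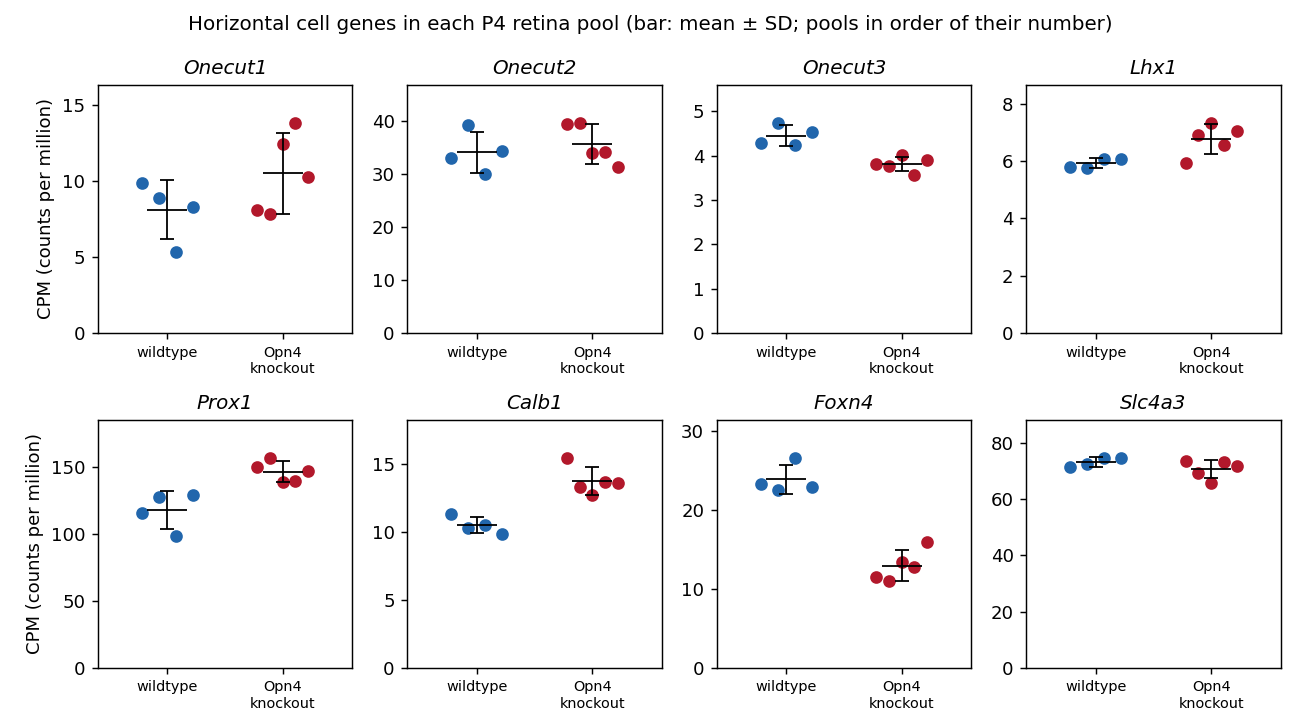
CPM (vertical axes, from 0) of each of the 8 genes in 4 wildtype (blue) and 5 knockout (red) pools, placed left to right by pool number, with mean and SD in black. Foxn4 lies at 11.01 to 16.0 CPM in the knockout pools and at 22.5 to 26.7 CPM in the wildtype pools, while Prox1 and Calb1 lie higher in every knockout pool than in any wildtype pool.

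Foxn4 encodes a forkhead transcription factor that makes progenitors competent for horizontal and amacrine fates. Its gene lies on chromosome 5, at 114254164 to 114273807 on the minus strand of GRCm38. It measured 11.5, 11.01, 13.4, 12.7 and 16.0 CPM in knockout pools 1 to 5 and 23.4, 22.5, 26.7 and 23.0 CPM in wildtype pools 1 to 4. Every knockout pool was below every wildtype pool, and knockout pool 5 was the nearest. The means were 12.9 ± 1.9 CPM (SD, n = 5) and 23.9 ± 1.9 CPM (SD, n = 4), which leaves 54.2% of the wildtype level. Its log2 fold change was -0.88 (SE 0.10, 95% interval -1.10 to -0.67; edgeR adjusted p = 0.000325). The call held whichever single pool was left out (edgeR adjusted p up to 0.00194). It also held with knockout pools 1 and 2 removed (-0.77, edgeR adjusted p = 0.00171). In TPM (a level scaled by transcript length and library) summed over its 4 transcript rows, Foxn4 measured 7.47 to 11.8 in knockout and 16.6 to 20.4 in wildtype, a difference of -1.01 on the log2(TPM + 0.5) scale (limma-trend adjusted p = 0.00341, where 2.16% of 15296 genes were called). The leading transcript row, with 81.5% of the gene's TPM, had a difference of -0.83 (limma-trend adjusted p = 0.0441 over transcript rows, where 0.176% were called). The authors' deposited table gives a log2 fold change of -0.93 with q = 0.000135, where 1.46% of 17433 genes have a q under 0.05. No other gene of the annotation overlaps Foxn4, and no near-identical transcript was found.

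Ptf1a, the bHLH factor that Foxn4 turns on, moved the same way. It lies on chromosome 2 at 19445663 to 19447501 and measured 2.47, 3.76, 5.17, 4.32 and 3.99 CPM in the knockout pools against 6.45, 6.84, 7.27 and 6.62 CPM in the wildtype pools. All knockout pools were below all wildtype pools, with knockout pool 1 the lowest. Knockout minus wildtype, this came to -0.79 on the log2 scale (edgeR adjusted p = 0.0175, SE 0.17). Leaving out wildtype pool 3 ended the call (edgeR adjusted p = 0.0546); the authors' deposited table gives q = 0.0570. The antisense gene Ptf1aos overlaps its exons but held at most 3 counts in a pool.

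The windows around the start sites of Foxn4, Ptf1a and Prox1 are shown because these regulators of horizontal cell fate were called, the first 2 lower and Prox1 higher. Each runs from 250 bases before the start site to 50 after it, from RefSeq on GRCm38.p6, and 5 of the 8 members had such a window that was used. Capitals mark matches on either strand to ATTGAT, the core bound by Onecut factors, to GACGC, a core bound by forkhead factors of the N class, and to CANNTG, the E-box bound by bHLH factors. The windows are chr5:114273712-114274011 on the minus strand, chr2:19445413-19445712 on the plus strand and chr1:190170778-190171077 on the minus strand, the first of the pair of windows listed for Prox1.
Foxn4: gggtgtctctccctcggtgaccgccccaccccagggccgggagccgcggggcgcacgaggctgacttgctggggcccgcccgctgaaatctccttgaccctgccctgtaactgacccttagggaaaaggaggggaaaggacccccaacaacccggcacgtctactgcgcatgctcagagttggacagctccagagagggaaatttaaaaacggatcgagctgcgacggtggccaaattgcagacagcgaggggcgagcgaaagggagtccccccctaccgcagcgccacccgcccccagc
Ptf1a: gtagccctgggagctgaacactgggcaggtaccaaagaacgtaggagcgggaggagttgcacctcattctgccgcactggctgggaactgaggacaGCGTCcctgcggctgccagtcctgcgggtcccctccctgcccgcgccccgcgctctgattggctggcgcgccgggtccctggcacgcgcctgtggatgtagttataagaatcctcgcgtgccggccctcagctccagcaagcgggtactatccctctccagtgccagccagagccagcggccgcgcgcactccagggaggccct
Prox1: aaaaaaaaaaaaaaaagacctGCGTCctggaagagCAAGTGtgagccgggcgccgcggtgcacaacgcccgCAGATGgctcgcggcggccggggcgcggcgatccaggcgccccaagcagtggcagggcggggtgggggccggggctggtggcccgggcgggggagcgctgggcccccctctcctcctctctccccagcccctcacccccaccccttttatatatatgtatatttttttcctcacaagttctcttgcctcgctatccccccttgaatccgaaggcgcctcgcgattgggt
The Foxn4 window held none of these letters. The Ptf1a window held 1 GACGC match, which starts at base 97 counted from the 5′ end. The Prox1 window held 1 GACGC match at base 22 and 2 E-boxes at bases 36 and 72, and the other window listed for Prox1 held 0 matches to any of the motifs. None of the printed matches overlaps another. Among 32851 windows of the same length, 7.54% held ATTGAT, 27.2% held GACGC and 72.3% held CANNTG, so that a match of either latter kind is common.

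Of the 5 listed genes of the Foxn4 programme, 1 was called higher and 1 lower (Ptf1a). This is 40% called, beside 3.59% of all genes tested. With knockout pools 1 and 2 removed, 0 were higher and 1 lower. Neurod1, a bHLH factor of amacrine cells and photoreceptors, rose from 678 ± 34 CPM to 789 ± 52 CPM (log2 fold change 0.22, SE 0.05; edgeR adjusted p = 0.0421). Leaving out any of 7 single pools ended this call (edgeR adjusted p up to 0.118), as did leaving out knockout pools 1 and 2 together (0.117). For Neurod1 the authors' deposited table gives q = 0.243. Dll4, a Notch ligand that Foxn4 induces, measured 17.1 to 19.9 CPM in knockout and 20.4 to 24.2 CPM in wildtype, ranges that did not overlap, but it did not pass the test (log2 fold change -0.27; edgeR adjusted p = 0.0674; 2 of the alternatives called it). Neurod4, a bHLH factor related to Neurod1, measured 0.15 (edgeR adjusted p = 0.262). Rorb, a nuclear receptor needed together with Foxn4 for Ptf1a, measured 358 to 407 CPM in knockout and 376 to 403 CPM in wildtype (95% interval of the log2 fold change -0.13 to 0.08).

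Factors of the precursors from which horizontal cells and cones arise were lower in 3 of 7 cases (42.9%), and none was higher. Over all genes tested, 2.25% were called lower. The median of the 7 was -0.16. Atoh7, a bHLH factor of the first neurogenic progenitors, measured 4.46, 4.07, 4.09, 4.55 and 6.16 CPM in the knockout pools and 8.01, 9.55, 7.73 and 9.25 CPM in the wildtype pools. Knockout differed from wildtype by -0.89 on the log2 scale (edgeR adjusted p = 0.00193, SE 0.13), close in size to that of Foxn4. Olig2, which marks progenitors in their last division, measured -0.33 (edgeR adjusted p = 0.0473), a call that was lost without any of 8 single pools (up to 0.106) and with knockout pools 1 and 2 removed (0.171). For Olig2 the authors' deposited table gives q = 0.184. With knockout pools 1 and 2 removed, 2 of the 7 were lower. Neurog2 (-0.16), Otx2 (0.02) and the cone receptors Thrb (0.18) and Rxrg (-0.16) did not pass the test. The direction of Otx2, a factor of photoreceptors and bipolar cells, turned without knockout pool 3, where it measured -0.02.

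**Figure D2:**
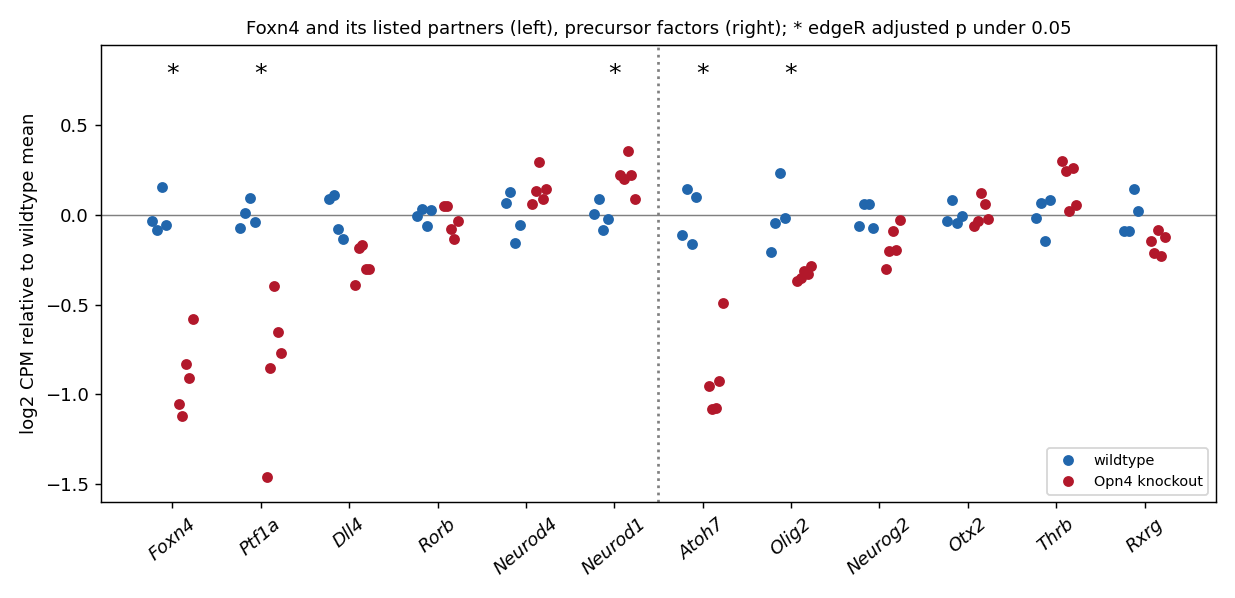
Log2 CPM of Foxn4 with 5 listed partners (left of the dotted line) and of 6 precursor factors (right), each relative to the gene's wildtype mean (vertical axis). Each point is 1 pool, blue for wildtype and red for knockout, and a star marks an edgeR adjusted p under 0.05; Foxn4, Ptf1a and Atoh7 lie lowest in the knockout pools.

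Genes of dividing progenitors moved with Foxn4. Of 14 listed, 10 were lower and 0 higher (9 and 0 with knockout pools 1 and 2 removed), with a median of -0.55. This is 71.4% called, beside 2.25% of all genes called lower. The 4 not called, Hes5, Sfrp2, Lhx2 and Rax, also had negative log2 fold changes (edgeR adjusted p = 0.0715, 0.581, 0.0767 and 0.239). The summed level of the 14 was 2031 to 2556 CPM in knockout and 3202 to 3290 CPM in wildtype. Ccnd1 alone gave 767 to 1101 CPM of this sum in knockout and 1295 to 1337 CPM in wildtype. Set against that sum, Foxn4 measured 5.32 to 6.25 CPM per 1000 progenitor CPM in knockout and 6.84 to 8.30 in wildtype, ranges that did not overlap (log2 ratio -0.39; exact two-sided permutation p = 0.00794, 0.0397 adjusted over 5 genes). Atoh7 measured 2.04 ± 0.27 against 2.67 ± 0.25 on this scale (log2 ratio -0.39; exact permutation p = 0.0238, adjusted 0.0397). Ptf1a measured 1.71 ± 0.35 against 2.10 ± 0.11, a difference that did not pass (exact permutation p = 0.0794, adjusted 0.0992). Olig2 measured 0.18 (exact permutation p = 0.119, adjusted 0.119), opposite in sign to its difference in CPM. This scale was added after seeing the data. The sum weighs each gene by its level, so the ratios depend on which genes were listed. Single log2 fold changes of the 14 ran from -0.77 (Mcm3) to -0.10 (Rax), beside -0.88 for Foxn4. Whether Foxn4 fell by more than the number of dividing cells was not tested.

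The Onecut genes encode factors with a cut domain and a homeodomain, and Onecut1 is needed in the mouse for most horizontal cells. Onecut1, on chromosome 9 at 74861921 to 74891781, measured 8.10, 7.80, 12.4, 13.8 and 10.3 CPM in the knockout pools and 9.85, 8.88, 5.34 and 8.29 CPM in the wildtype pools. Knockout pools 3 and 4 were highest, wildtype pool 3 lowest, and the groups overlapped. The log2 fold change of 0.37 did not pass the test (SE 0.20, 95% interval -0.05 to 0.80; edgeR adjusted p = 0.377).

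The counts of Onecut1 cannot be read alone, because the lincRNA gene Gm20649 overlaps its exons on the same strand and matched its transcripts at 95% identity or more over at least 50% of a transcript. Gm20649 held 243, 506, 0, 0 and 492 counts in knockout pools 1 to 5 and 559, 435, 321 and 342 counts in wildtype pools 1 to 4. The 2 pools listed at 0 for Gm20649 are those with the highest Onecut1. In the other 7 pools Onecut1 held 54.4 to 71.8% of the counts of both genes. Summed over both, the pools measured 11.3, 14.3, 12.4, 13.8 and 16.0 CPM in knockout and 16.3, 14.8, 9.21 and 12.5 CPM in wildtype. The means were then 13.6 ± 1.8 CPM (SD, n = 5) and 13.2 ± 3.1 CPM (SD, n = 4), with a log2 fold change of 0.04 (SE 0.15, 95% interval -0.28 to 0.36; edgeR adjusted p = 0.936). The sum was formed after seeing the data. The TPM of Onecut1 also overlapped, at 4.42 to 8.39 in knockout and 4.61 to 7.10 in wildtype, and the authors' deposited table gives a log2 fold change of 0.21 with q = 0.796.

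**Figure D3:**
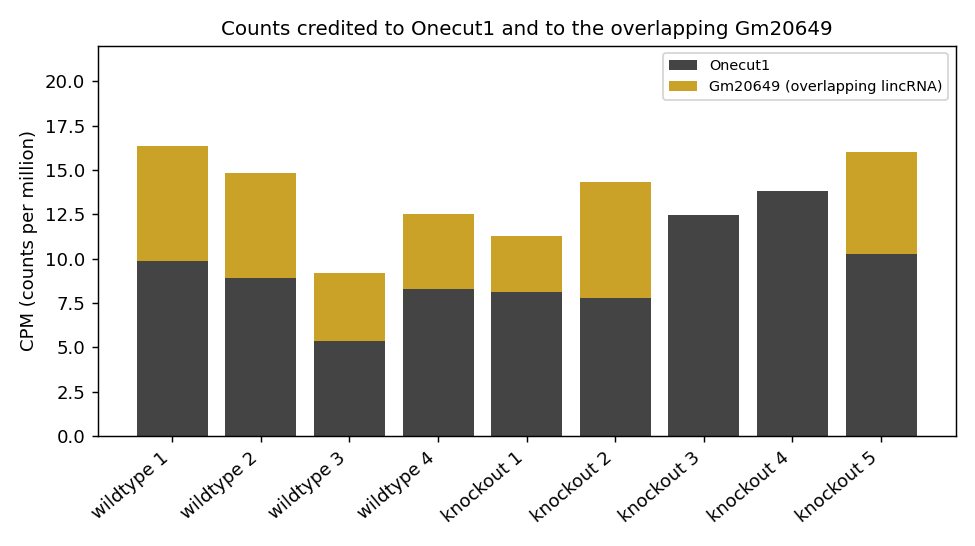
Stacked bars of CPM (vertical axis, from 0) credited to Onecut1 (dark) and to the overlapping lincRNA gene Gm20649 (yellow) in each pool. Gm20649 is at 0 in knockout pools 3 and 4, where Onecut1 stands at 12.4 and 13.8 CPM, and the total heights of both groups overlap.

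Onecut2, on chromosome 18, is a close relative of Onecut1 and measured 39.5, 39.7, 33.9, 34.1 and 31.3 CPM in the knockout pools and 33.0, 39.3, 29.96 and 34.3 CPM in the wildtype pools. The groups overlapped along most of their range (log2 fold change 0.07, 95% interval -0.13 to 0.26; edgeR adjusted p = 0.786). Its sign turned, to -0.047, once knockout pools 1 and 2 were removed. Onecut3, on chromosome 10, was the scarcest of the 8, at 3.57 to 4.01 CPM in knockout and 4.23 to 4.74 CPM in wildtype. Its ranges did not overlap, but the log2 fold change of -0.22 did not pass the test (95% interval -0.44 to -0.0049; edgeR adjusted p = 0.291). Its unadjusted edgeR quasi-likelihood p, a value fitted across all genes and not an exact test, was 0.0457 (16.5% of all genes had an unadjusted p under 0.05). In TPM the ranges of Onecut3 overlapped, at 1.96 to 2.47 in knockout and 2.14 to 2.67 in wildtype.

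Lhx1 encodes a LIM homeodomain factor that places horizontal cells in their layer. The gene, on chromosome 11, measured 5.95, 6.92, 7.33, 6.57 and 7.06 CPM in the knockout pools and 5.79, 5.76, 6.07 and 6.08 CPM in the wildtype pools. Of the 5 knockout pools, 4 were above all wildtype pools, and knockout pool 1 lay among the wildtype pools. The log2 fold change of 0.19 did not pass the test (SE 0.09, 95% interval -0.01 to 0.39; edgeR adjusted p = 0.327). The authors' deposited table gives 0.06 with q = 0.958.

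Prox1 encodes a homeodomain factor that moves progenitors out of the cell cycle and is needed for horizontal cells in the mouse. Its gene lies on chromosome 1 at 190118035 to 190170714, minus strand. It measured 150.0, 157, 138.5, 139 and 147 CPM in the knockout pools and 116, 128, 98.4 and 129 CPM in the wildtype pools. All knockout pools were above all wildtype pools, and wildtype pool 3 was the lowest. Its log2 fold change was 0.31 (SE 0.07, 95% interval 0.16 to 0.47; edgeR adjusted p = 0.0300). This call ended without knockout pool 1 (edgeR adjusted p = 0.0581), knockout pool 2 (0.0820), wildtype pool 1 (0.0898) or both knockout pools 1 and 2 (0.136), with log2 fold changes of 0.26 to 0.31. In summed TPM the difference was 0.30 (limma-trend adjusted p = 0.0792), and the authors' deposited table gives 0.28 with q = 0.0140. The leading of 3 transcript rows, with 90.0% of the gene's TPM, measured 28.3 to 31.9 in knockout and 20.9 to 26.2 in wildtype. This row did not pass the test (limma-trend adjusted p = 0.192 over transcript rows), and the other rows overlapped between the genotypes. The antisense gene Prox1os overlaps exons of Prox1 and measured 3.92 to 4.31 CPM in knockout and 2.30 to 3.57 CPM in wildtype (log2 fold change 0.41; edgeR adjusted p = 0.136). The sources used here do not say whether counting used strand, so the reads of this pair cannot be told apart.

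Calb1 encodes calbindin, a calcium-binding protein by which horizontal cells are commonly stained. Its gene lies on chromosome 4 at 15881264 to 15908064. It measured 15.4, 13.3, 12.7, 13.6 and 13.6 CPM in the knockout pools and 11.3, 10.3, 10.5 and 9.85 CPM in the wildtype pools. The groups did not overlap, and knockout pool 1 was the highest. Knockout minus wildtype, the log2 fold change was 0.39 (SE 0.08, 95% interval 0.22 to 0.56; edgeR adjusted p = 0.0131). It no longer passed when wildtype pool 4 was left out (edgeR adjusted p = 0.0542), nor when knockout pools 1 and 2 were (0.0605, log2 fold change 0.34). In summed TPM the difference was of similar size, 0.38, but with a larger SE of 0.14 it did not pass (limma-trend adjusted p = 0.209), and the ranges overlapped, at 8.24 to 12.0 in knockout and 6.28 to 9.63 in wildtype. The authors' deposited table gives 0.32 with q = 0.491. The leading of its 3 transcript rows, with 52.5% of the TPM, measured 4.58 to 5.79 in knockout and 3.70 to 4.16 in wildtype without overlap. This row did not pass the test (limma-trend adjusted p = 0.413 over transcript rows). The second row, with 39.4%, overlapped, and wildtype pool 1 at 4.51 was above 4 of the knockout pools.

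Slc4a3, on chromosome 1 at 75546266 to 75562172, encodes an exchanger of chloride for bicarbonate and had the smallest SE of the 8. It measured 65.9 to 73.8 CPM in knockout and 71.4 to 74.8 CPM in wildtype, so the groups overlapped. The log2 fold change was -0.05 (SE 0.04, 95% interval -0.14 to 0.04; edgeR adjusted p = 0.641).

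**Figure D4:**
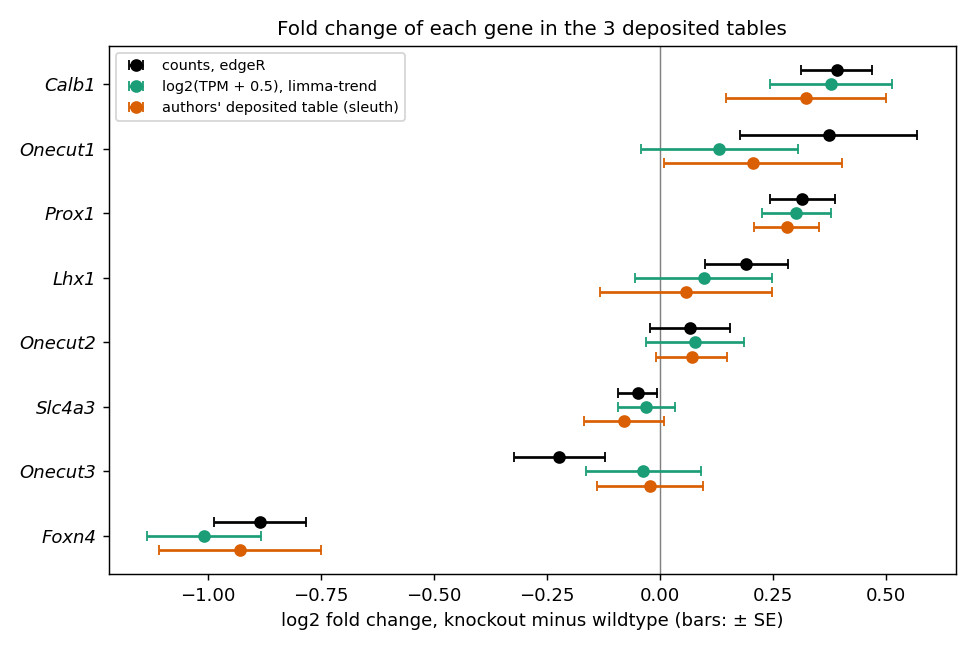
Log2 fold change, knockout minus wildtype (horizontal axis), of the 8 genes with ± SE bars, from the counts (black), the summed TPM (green) and the authors' deposited table (orange). Foxn4 lies between -1.01 and -0.88 in all 3, Calb1 between 0.32 and 0.39, and Onecut1 and Onecut3 differ most between the sources.

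Per transcript length, Slc4a3 and Prox1 were the most abundant of the 8 and Onecut3 the least. The mean TPM over all 9 pools was 35.8 for Slc4a3, 30.1 for Prox1, 12.8 for Foxn4, 8.72 for Calb1, 6.20 for Onecut1, 3.67 for Onecut2, 3.41 for Lhx1 and 2.35 for Onecut3. The pool ranges of Slc4a3 and Prox1 overlapped, as did those of Foxn4, Calb1 and Onecut1 with their neighbours in that group, and those of Onecut2 and Lhx1. Among neighbours in this order, the ranges parted between Prox1 and Foxn4, between Onecut1 and Onecut2, and between Lhx1 and Onecut3. Lhx1, at 4.70 in knockout pool 5, still overlapped Onecut1, at 4.42 in knockout pool 1. Foxn4 and Calb1 parted only in wildtype, where pools held 17.95 ± 1.7 TPM of Foxn4 and 7.43 ± 1.5 of Calb1. In knockout the pools held 8.76 ± 1.8 and 9.75 ± 1.4, and the ranges of these genes overlapped (7.47 to 11.8 and 8.24 to 12.0). Onecut2 stood high in CPM and low in TPM, and its transcript is the longest of the set at 16234 bases.

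**Figure D5:**
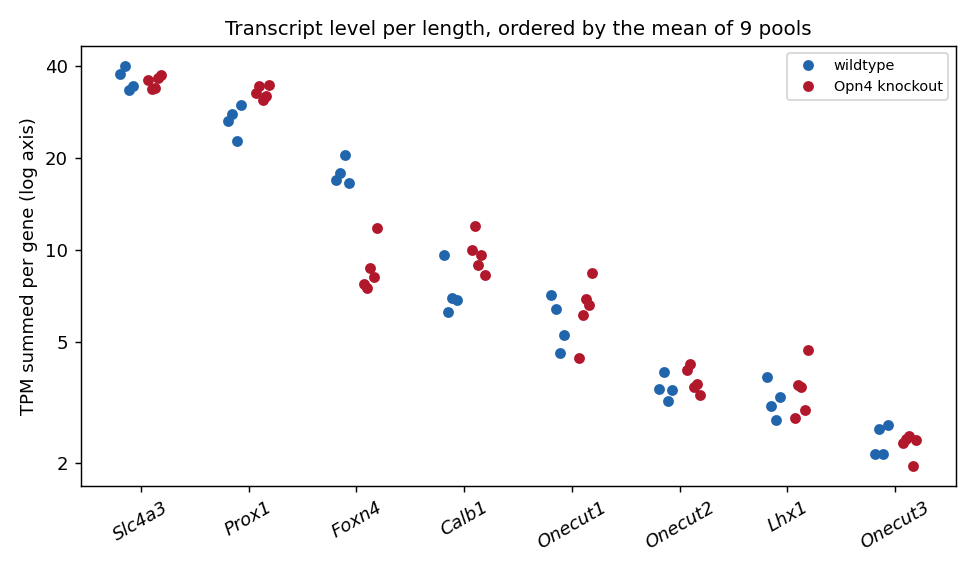
TPM summed per gene (vertical log axis) for the 8 genes in order of their mean over 9 pools, with wildtype pools in blue and knockout pools in red. Foxn4 parts by genotype, at 16.6 to 20.4 TPM in wildtype and 7.47 to 11.8 TPM in knockout, while Slc4a3 overlaps.

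Of 18 other measured genes that horizontal cells use, 2 were lower and 0 higher, with a median log2 fold change of 0.05. This is 11.1% called, beside 3.59% of all genes tested. The lower ones were Ptf1a and Gad2, which makes the transmitter GABA in horizontal and amacrine cells (53.2 ± 4.8 CPM in wildtype, 43.6 ± 2.7 CPM in knockout; log2 fold change -0.29; edgeR adjusted p = 0.0302, lost without any of 6 single pools, up to 0.0991, and 0.0659 with knockout pools 1 and 2 removed). For Gad2 the authors' deposited table gives -0.15 with q = 0.811, and in summed TPM it did not pass (limma-trend adjusted p = 0.141). With knockout pools 1 and 2 removed, 1 of the 18 was lower and 0 higher. Gad1, which also makes GABA, measured 144.5 to 157 CPM in knockout and 133 to 143.8 CPM in wildtype, higher without overlap, but the log2 fold change of 0.10 did not pass the test (edgeR adjusted p = 0.249). Gja10, the connexin of horizontal cell gap junctions, was scarce and measured 0.784, 0.336, 0.846, 0.402 and 0.574 CPM in the knockout pools and 0.174, 0.327, 0.217 and 0.372 CPM in the wildtype pools. Most knockout pools were higher, but knockout pool 2 lay within the wildtype range and the log2 fold change of 1.11 did not pass the test (95% interval 0.29 to 1.93; edgeR adjusted p = 0.148). Megf10 and Megf11, receptors that space horizontal cells apart, measured 0.10 and 0.11 (edgeR adjusted p = 0.370 for each). Tfap2a and Tfap2b, factors shared by horizontal and amacrine cells, measured -0.19 and -0.11 (edgeR adjusted p = 0.120 and 0.262), and the former was called under 3 alternatives. Slc32a1, the vesicular GABA transporter, measured 0.09 and Sall3, a zinc finger factor of horizontal cells and cones, -0.05, a sign that turned without knockout pool 3 (0.01). The horizontal cell markers Lhx1, Calb1 and Gja10 were detected in all pools.

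Because the members are also read in other cell types, the markers of those types are set beside them. Over all genes tested, 1.34% were called higher and 2.25% lower. Of 14 ganglion cell genes 3 were higher and 0 lower, of 14 amacrine genes 1 was higher and 2 lower, and of 11 cone genes none was called, with medians of -0.02, -0.02 and -0.02. Of 12 bipolar genes 6 were higher, with a median of 0.23, and of 12 rod genes 10 were higher, with a median of 0.58; of 10 Müller glia genes 2 were higher and 2 lower, and of 9 lens genes 2 were higher. With knockout pools 1 and 2 removed, 2 bipolar genes (median 0.17), 6 rod genes (median 0.36), 2 ganglion cell genes and 2 Müller glia genes were higher, 1 Müller glia gene was lower, and 0 amacrine, cone or lens genes were called. In that setting, 134 of all 21374 genes tested were called higher and 352 lower. The summed CPM of the bipolar list was 1139 to 1211 in knockout and 1075 to 1129 in wildtype, and that of the ganglion cell list 1454 to 1666 and 1490 to 1623. Bipolar, rod, cone and lens list levels all stood highest in knockout pools 1 and 2, as did Prox1. The part of these cell types in the values of Prox1, Calb1 and Foxn4 was not tested.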

How the data were processed

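Polyadenylated RNA of 9 retina pools was sequenced as paired reads of 150 bases, per the labels. The deposited counts are whole numbers per gene symbol. The series' design text names kallisto for quantification; whether it made this gene table, and with what strand setting, is not stated there. The design text gives 42.7 ± 3.9 M reads per sample, fewer than the totals of the table. The second table is a signal per transcript row made by the authors, TPM from kallisto 0.46.1 on GRCm38 after Trimmomatic 0.39, per the submitters' processing notes; its column sums of 953963 to 1083980 differ from those of plain TPM, so the unit was recorded as signal and not, as planned, TPM. TPM rows whose symbol was digits alone (188) were left out, and TPM was summed per symbol. The authors' deposited comparison (sleuth 0.30.8) gives p-values and q-values, and effects on a natural log scale per the file headers and values, which were rescaled to log2 and turned so that positive means higher in knockout.

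Counts were tested with edgeR 4.0.16 in R 4.3.3 (filterByExpr, TMM, quasi-likelihood F test, two-sided, Benjamini-Hochberg over 21150 genes). TPM was tested with limma 3.58.1 on log2(TPM + 0.5), which understates changes of low genes, for genes that reached a TPM of 1 in 4 or more pools. DESeq2 1.42.0 was an alternative. The scripts were tested on simulated counts. Ranges, SDs and permutation tests are over pools of separate animals. Positions and overlaps came from GENCODE M21, and near-identical copies were BLAST 2.17.0 hits with 95% identity or more that covered 50% or more of a transcript. The members, the lists and the rule for named genes (all members, and genes of the horizontal cell, Foxn4 and precursor lists) were chosen with earlier results of these data known. Knockout and wildtype pools share only a number: deviations of same-numbered pools correlated at -0.03 to 0.01. Values of some listed genes are not reported here.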

Additional observations from a re-analysis of the deposited data

Results flagged for a closer look

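In 3 of the 74 groups of pools checked, 1 pool lay far from the others of its genotype relative to their range; chance flags about 1 in 20 groups. Adra2a, an adrenergic receptor of horizontal cells, measured 9.53 CPM in knockout pool 3 and 10.8 to 11.2 CPM in the other knockout pools. Nefm, a neurofilament, measured 279 CPM in wildtype pool 1 and 262 CPM in each of the other wildtype pools. Atoh7 measured 6.16 CPM in knockout pool 5 and 4.07 to 4.55 CPM in the other knockout pools, all of them below the wildtype pools.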

How the results depend on the processing

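Foxn4 and Atoh7 kept their direction and their call under every alternative run. The log2 fold changes of Foxn4 lay between -1.04 and -0.77. Its log2 ratio of -0.39 against the progenitor sum is another measure, with a permutation test adjusted over 5 genes only. The count of members called lower was 1 throughout. The count called higher was 2, but 1 with no filter on low counts, 1 to 2 when single pools were left out, 0 without knockout pools 1 and 2, and 0 in summed TPM with pseudocounts of 0.5, 0.1 or 1 or without a filter. Over all genes 760 were called, with 1502 by DESeq2, 486 without knockout pools 1 and 2, 330, 337 and 330 in summed TPM with pseudocounts of 0.5, 0.1 and 1, and 194 there without a filter; 740 of the DESeq2 calls and 302 of the first TPM calls were shared with the 760. With pools 1 to 4 of each genotype and the number as a replicate block, 915 genes and the same count of members were called; the deviations give no sign of pairing. Signs turned for Onecut2 (-0.047 without knockout pools 1 and 2), Tpm3 (-0.040 in the counts, 0.033 without those pools, 0.060 in summed TPM under each pseudocount and without the filter), Lrrc4 (-0.033 to 0.010 over single pools left out, 0.0097 without knockout pools 1 and 2), Sall3 (-0.13 to 0.013 over single pools) and Otx2 (-0.016 to 0.041 over single pools), and, set against the progenitor sum, for Olig2 (0.18); the cause was not tested.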

Other observations

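Some values belong to no comparison. Slc4a3 was spread over 12 transcript rows, the leading one with 41.9% of its TPM, and another row, with 11.3%, measured 4.05 to 4.88 in knockout and 2.91 to 4.14 in wildtype, without passing the test. After subtracting each genotype's mean, the genes whose log2 CPM ran most like a member over the 9 pools, among 12490 genes with a mean of at least 5 CPM, were Rusc2 (r = 0.99), Micall1 (0.97) and Ncs1 (0.97) for Foxn4, Ints6, Helz and Kdm6a for Prox1 (0.97, 0.97 and 0.96), Arhgap39, Sh3glb2 and Arhgap44 for Calb1 (0.91, 0.91 and 0.90), Cd63-ps, Smg8 and Ak4 for Lhx1 (0.97, 0.97 and 0.96), Yes1, Grpel2 and B4galt1 for Onecut2 (0.97, 0.97 and 0.97), Umps, Enc1 and Gm26782 for Onecut1 (0.97, 0.96 and 0.95), and Rad9a and Mbip for Slc4a3 (0.95 and 0.94). These are the best of many genes over few pools that share depth and scaling, and are given as a description. No member was among the 3 genes most like another member.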
